A study of Mus musculus with 12 samples.

Results

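Bcl2l11 and 9 other genes of the Bcl2 family were followed in primary cells of the mouse cerebral cortex, in cultures given triiodothyronine (T3, the active form of thyroid hormone) and in cultures kept without it. Bcl2l11 was chosen by its higher level with T3 in these same libraries, so its change is described here without a test. The other 9 genes, Bcl2, Bcl2l1, Bcl2l2, Mcl1, Bax, Bak1, Bad, Bbc3 and Bid, are known family members that had a row in the deposited table. All 10 were found among the 14801 genes listed, and all 10 passed the filter on low values, which left 13663 genes for testing. No member lay near the limit of the table, which lists genes at 1 CPM (read counts scaled to library size) or more in at least 2 libraries, since the lowest value of any member was 16.2 CPM.

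The 12 wild type libraries came from 6 fetuses taken on gestational day 17.5, whose cortices gave 1 culture with T3 and 1 without it. Whether fetuses shared a dam is not stated. The cells grew for 9 days in medium with B27 supplement and then stood for 24 h without B27. T3 cultures then received 10 nM T3 for 24 h, while the cultures without T3 were kept in parallel. A culture is a mixture of neurons and glia, and levels are averages over all its cells, so fewer cells of a type and less RNA per cell cannot be told apart.

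The Bcl2 family decides whether the outer membrane of mitochondria is opened, the step that releases cytochrome c and starts the caspase cascade of intrinsic apoptosis. Pro-survival members hold the effectors Bax and Bak1 in check, and BH3-only members bind the pro-survival proteins or activate the effectors directly. Bcl2l11 encodes Bim, a BH3-only protein known in neurons for its part in death after loss of trophic support. Of the 10 genes, 4 are BH3-only (Bcl2l11, Bbc3, Bad, Bid), 2 are effectors (Bax, Bak1) and 4 are pro-survival (Mcl1, Bcl2l1, Bcl2l2, Bcl2).

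The element that joins these genes is the BH3 stretch, which in the BH3-only proteins fits into a groove of the pro-survival proteins. In the coding sequence of each of the 10 members, a search for a leucine or methionine followed, 4 codons later, by a small residue and an aspartate and then by glycine or an acidic residue found exactly 1 match. The coding bases of 14 codons around it are shown for Bcl2l11, for the other BH3-only genes, for an effector and for a pro-survival gene, to show what Bcl2l11 shares with the members it is compared with. They come from GENCODE release M21 on GRCm38 and run 5′ to 3′ along the coding strand. Capitals mark the codon of the leucine and those of the small residue and the aspartate.
Bcl2l11: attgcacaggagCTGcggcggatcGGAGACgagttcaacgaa
Bbc3: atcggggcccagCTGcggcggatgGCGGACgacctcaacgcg
Bad: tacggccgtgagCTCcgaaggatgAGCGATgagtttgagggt
Bid: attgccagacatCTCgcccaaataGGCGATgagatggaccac
Bax: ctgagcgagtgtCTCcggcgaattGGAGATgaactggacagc
Mcl1: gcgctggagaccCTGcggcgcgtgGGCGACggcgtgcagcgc
The Bcl2l11 stretch lies at chr2:128147138-128147179 on the plus strand, inside 1 exon, and starts 4 codons before codon 150 of 196. Bbc3 carries GCG and Bad carries AGC where the other 4 sequences carry a glycine codon.

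Levels are CPM scaled by TMM, which corrects library sizes for composition, and changes are differences of log2(CPM + 0.5), T3 minus no T3, with the mouse as a block. The T3 libraries held 7460586 to 10837895 reads and the libraries without T3 5272092 to 8136928. In every mouse (6 of 6) more reads came from the T3 culture, 1.03 to 1.67 times as many. Markers are said to rise or fall at an adjusted p under 0.05 (limma, Benjamini-Hochberg). Of all genes tested, 3.37% rose and 2.14% fell by this rule. Neuronal markers fit the label of the cultures, with a summed level of 8259 to 10177 CPM in T3 cultures and 8721 to 11754 CPM in cultures without T3 over 8 genes, of which 1 rose, and a higher sum with T3 in 1 of 6 mice. The summed level of 8 astrocyte markers was 1229 to 3205 CPM with T3 and 813 to 2741 CPM without, higher with T3 in 6 of 6 mice, and 4 of 7 tested markers rose. The sum of 8 markers of the oligodendrocyte lineage was 449 to 565 CPM with T3 and 346 to 500.4 CPM without, also higher in 6 of 6 mice, and 3 of 8 rose. Of 8 microglia and blood markers 3 were listed, with sums of 2.56 to 5.15 CPM with T3 and 2.20 to 6.68 CPM without. Endothelial markers (3 of 6 listed) summed to 6.39 to 30.7 CPM with T3 and 5.86 to 32.1 CPM without, and those of mural cells and fibroblasts (7 of 8) to 43.5 to 159.2 CPM with T3 and 76.0 to 439.6 CPM without, where 1 of 7 fell. Mouse 4 without T3 differed from the rest, with that highest mural and fibroblast sum and with 1213 CPM over 3 heart muscle markers, against at most 6.88 CPM in the other 11 libraries.

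Bcl2l11 (ENSMUSG00000027381, chromosome 2 from 128126038 to 128162547 on GRCm38, plus strand) was higher with T3 in 6 of 6 mice. It averaged 44.8 ± 6.30 CPM in T3 cultures and 28.4 ± 3.73 CPM in cultures without T3 (SD, n = 6). The T3 cultures ran from 37.0 over a median of 44.8 to 54.5 CPM, and those without T3 from 22.5 over 28.5 to 34.1 CPM. The groups did not overlap, which held with T3 on top for 1.05% of all genes tested. The values rest on 167 to 563 reads per library.

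Within mice, Bcl2l11 differed least in mouse 4, with 44.9 CPM with T3 and 34.1 CPM without, and mouse 4 also had the highest level without T3. It differed most in mouse 3, with 54.5 CPM with T3 and 27.2 CPM without, a 1.98-fold difference. The other ratios were 1.34-fold in mouse 1, 1.58-fold in mouse 2, 1.63-fold in mouse 5 and 1.67-fold in mouse 6. The mean difference was 0.65 ± 0.22 on the log2 scale (SD over 6 mice, range 0.39 to 0.99), or 1.57-fold, and no interval is given for it because this difference chose the gene. By size it had rank 86 among the 13663 genes tested, and 80 of the 461 genes that passed as higher had a larger difference. Without mouse 4, whose library without T3 held the heart transcripts, the difference was 0.70, and with all libraries thinned to 5272092 reads it was 0.63. The astrocyte and oligodendrocyte marker sums moved the same way in the same 6 mice, by 1.07 to 1.51 times and 1.10 to 1.30 times, and their part in the Bcl2l11 difference was not tested.

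**Figure D1:**
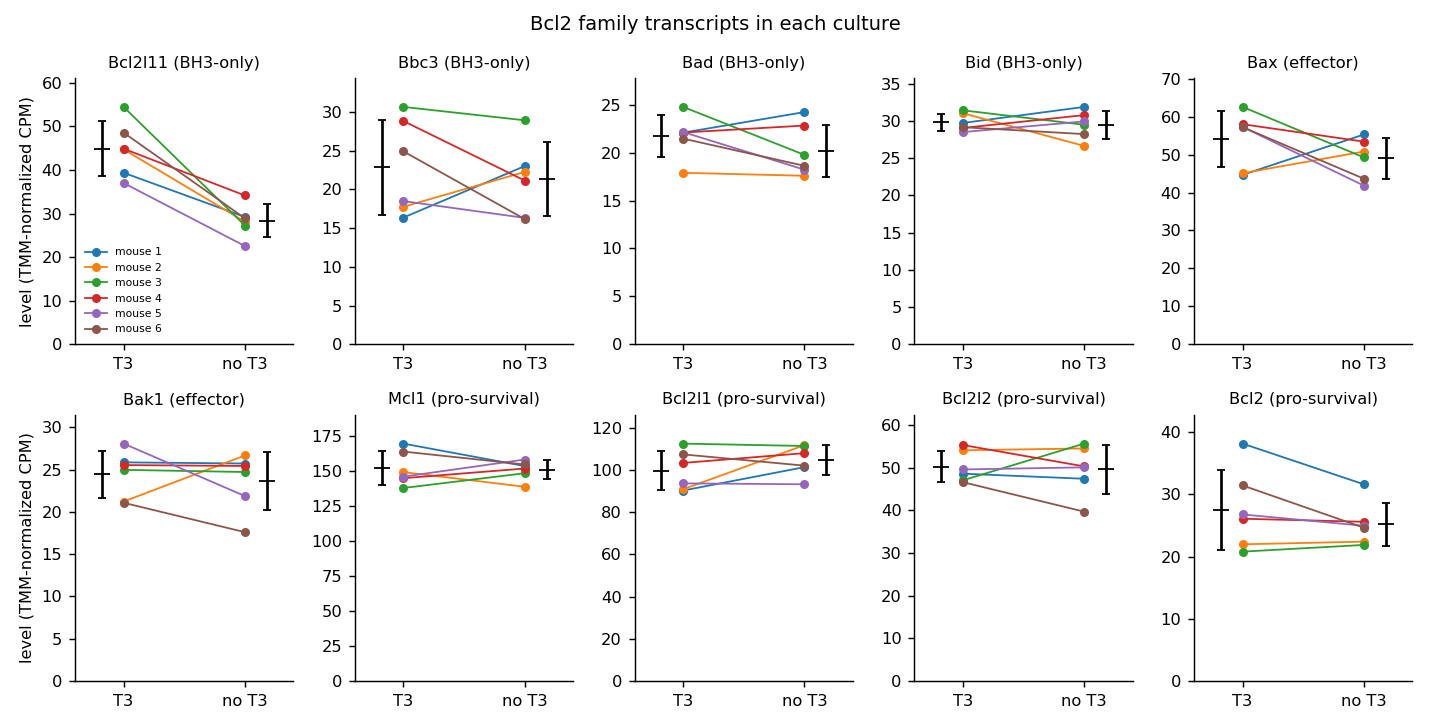
Level of each of the 10 genes in TMM-normalized CPM (vertical axes, each from 0) in cultures with T3 (left) and without T3 (right). Coloured lines join the cultures of a mouse, and the black bars beside the points are the mean and SD of 6 cultures. In the Bcl2l11 panel all T3 values lie between 37.0 and 54.5 CPM, above all values without T3, while in the other 9 panels the groups overlap.

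None of the other 9 members passed the test across all genes (limma, Benjamini-Hochberg adjusted p from 0.493 to 0.972), where 5.52% of all genes passed, 3.37% as higher and 2.14% as lower. None had an unadjusted p under 0.05, and none passed with edgeR, DESeq2 or limma-voom. In each of the 9 the groups overlapped. Taken over the 9 genes, the 95% intervals of the log2 difference reached from -0.19 to 0.35. The median difference of the 9 genes was 0.052, against 0.0031 over all genes tested, and 8 of the 9 were above 0, of which Bid, Mcl1 and Bcl2l2 turned below 0 when reads were thinned to equal depth.

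Among the BH3-only genes, Bbc3 (ENSMUSG00000002083, chromosome 7 from 16308393 to 16318205, plus strand), which encodes Puma, a p53-induced activator of cell death, had the widest interval of the 9 members tested. It ran from 16.4 over a median of 21.7 to 30.7 CPM with T3 and from 16.2 over 21.7 to 28.9 CPM without, a log2 difference of 0.084 (95% interval -0.18 to 0.35, adjusted p = 0.796 by limma). Its change in single mice went both ways, from -0.48 in mouse 1 to 0.61 in mouse 6. Bad (ENSMUSG00000024959, chromosome 19 from 6941861 to 6951899, plus strand), a protein that growth factor signalling switches off by phosphorylation, stood at 17.9, 22.1 and 24.8 CPM with T3 and at 17.6, 19.2 and 24.2 CPM without, as lowest, median and highest values. Its log2 difference was 0.11 (95% interval -0.066 to 0.28), and it was higher with T3 in 4 of 6 mice. The gene Gpr137 covers 20.5% of the Bad exons on the other strand, and the library kit does not mark strand, so their reads could not be separated.

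Bid (ENSMUSG00000004446, chromosome 6 from 120891930 to 120916853, minus strand), which death receptor caspases cut into an active fragment, had the smallest SD of the 4 BH3-only members, 1.17 CPM with T3 and 1.86 CPM without. It ran from 28.5 over 29.5 to 31.4 CPM with T3 and from 26.7 over 29.7 to 31.9 CPM without, with a log2 difference of 0.017 (95% interval -0.13 to 0.16). It was higher with T3 in 3 of 6 mice. Its neighbour Bcl2l13, itself a Bcl2 relative, overlaps 17.7% of its exons on the other strand.

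The effector genes encode the proteins that form pores in the mitochondrial membrane. Bax (ENSMUSG00000003873, chromosome 7 from 45461697 to 45466898, minus strand) ran from 44.7 over 57.3 to 62.6 CPM with T3 and from 41.8 over 50.1 to 55.3 CPM without, a log2 difference of 0.14 (95% interval -0.055 to 0.33, adjusted p = 0.493 by limma). It was higher with T3 in mice 3 to 6 and lower in mice 1 and 2, as was Bbc3, a match seen only after the values were at hand.

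**Figure D2:**
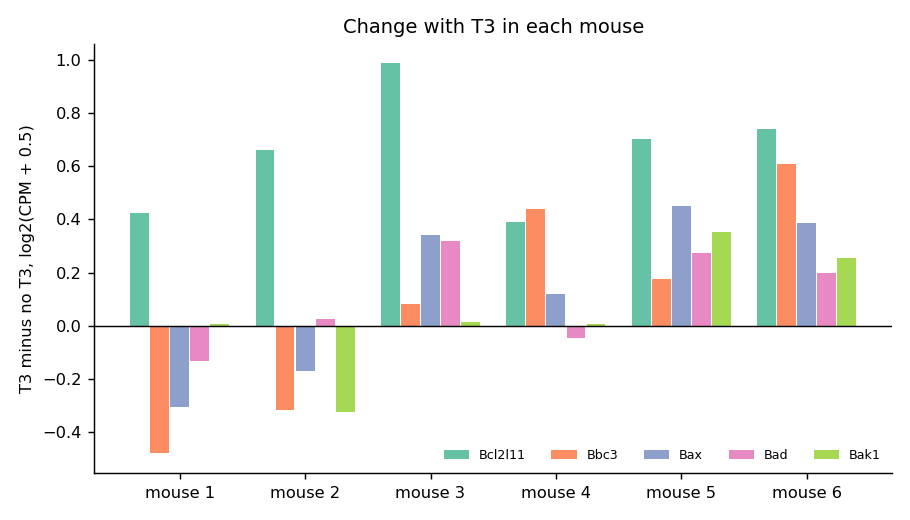
Difference between T3 and no T3 in log2(CPM + 0.5) (vertical axis) of Bcl2l11, Bbc3, Bax, Bad and Bak1 in each of 6 mice, 1 bar per gene and mouse. Bcl2l11 bars lie above 0 in 6 of 6 mice, while Bbc3 and Bax bars lie below 0 in mice 1 and 2 and above 0 in mice 3 to 6.

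Without mouse 1 the Bax difference had an adjusted p of 0.0935, the lowest of any of the 9 genes in any of the 15 other settings, in which the adjusted p of Bax otherwise lay above 0.27. Bak1 (ENSMUSG00000057789, chromosome 17 from 27019810 to 27029009, minus strand) ran from 21.1 over 25.2 to 28.1 CPM with T3 and from 17.6 over 25.1 to 26.7 CPM without, a log2 difference of 0.052 (95% interval -0.13 to 0.23). A read-through gene on the same strand overlaps 12.2% of the Bax exons, and 2 annotated genes named Ggnbp1 overlap 18.2% and 7.35% of those of Bak1 on the other strand.

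**Figure D3:**
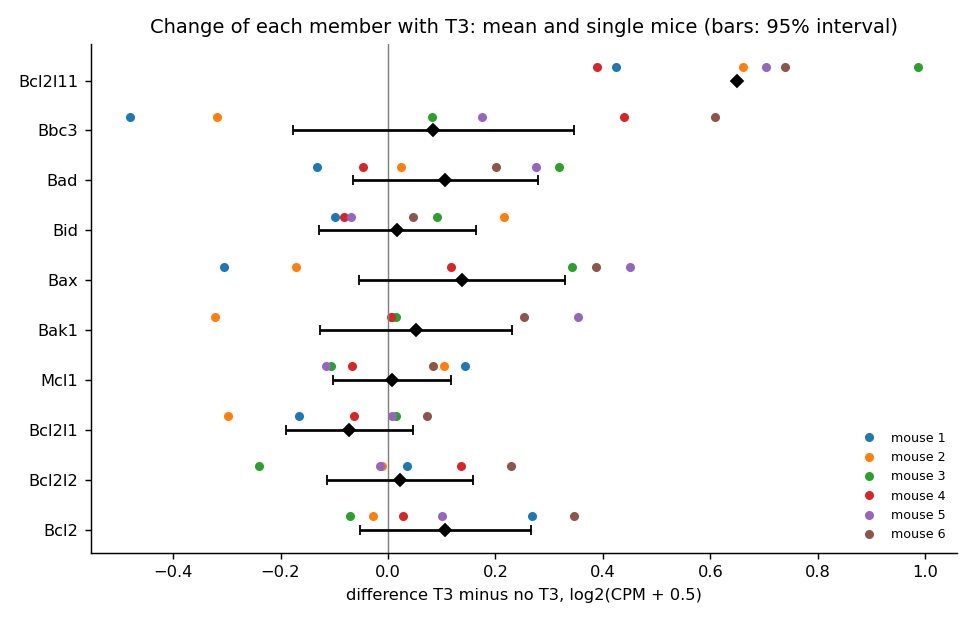
Difference between T3 and no T3 in log2(CPM + 0.5) for the 10 genes (horizontal axis). Diamonds are means over 6 mice, coloured points are single mice, and bars are 95% intervals from limma, drawn for the 9 genes other than Bcl2l11, which was chosen by this difference. The single mice of Bcl2l11 run from 0.39 to 0.99, and the 9 intervals all include 0.

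Mcl1 and Bcl2l1 had the narrowest intervals of the 9 members tested. Mcl1 (ENSMUSG00000038612, chromosome 3 from 95658788 to 95663176, plus strand), a short-lived guard of Bak1 and Bax, ran from 137.7 over 147.4 to 169.4 CPM with T3 and from 138.6 over 152.5 to 158 CPM without, a log2 difference of 0.0070 (95% interval -0.10 to 0.12). It was higher with T3 in 3 of 6 mice and lower in the other 3. Bcl2l1 (ENSMUSG00000007659, chromosome 2 from 152780668 to 152831728, minus strand), the gene of Bcl-xL, the main survival protein of postmitotic neurons, ran from 90.3 over 98.5 to 112.5 CPM with T3 and from 93.2 over 105.0 to 111.8 CPM without. It had a mean below 0 (log2 difference -0.072, 95% interval -0.19 to 0.046), and it was lower with T3 in 3 of 6 mice.

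Bcl2l2 (ENSMUSG00000089682, chromosome 14 from 54883377 to 54888234, plus strand), which encodes Bcl-w, a relative of Bcl-xL, ran from 46.6 over 49.1 to 55.3 CPM with T3 and from 39.7 over 50.2 to 55.6 CPM without (log2 difference 0.022, 95% interval -0.11 to 0.16). A read-through gene covers 13.3% of its exons. Bcl2 (ENSMUSG00000057329, chromosome 1 from 106538178 to 106714274, minus strand), the founding member, ran from 20.8 over 26.4 to 38.2 CPM with T3 and from 21.9 over 24.8 to 31.6 CPM without (log2 difference 0.11, 95% interval -0.052 to 0.27). Mouse 1 gave the highest Bcl2 level in both groups, 38.2 CPM with T3 and 31.6 CPM without. An antisense gene overlaps 6.09% of its exons.

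To set the genes side by side, CPM was divided by the length of all annotated exons of a gene in kb. On this scale Mcl1 had the highest level, 44.4 ± 3.57 with T3 and 44.1 ± 1.98 CPM per kb without (SD, n = 6). Bax followed with 34.4 ± 4.73 and 31.1 ± 3.39 CPM per kb, and Bcl2l1 with 21.7 ± 2.05 and 22.8 ± 1.56, in the same order of groups. Each of these 3 genes lay above the next in 12 of 12 libraries. Below them Bcl2l2, Bbc3 and Bak1 shared a range from 7.31 to 14.4 CPM per kb and changed places between libraries. Bid and Bad did the same between 6.87 and 9.68, and Bak1 lay above Bid in 11 of 12 libraries. Exon stretches shared with other genes, such as 20.5% for Bad and 17.7% for Bid, were not taken out of the lengths. The order of genes this close is therefore uncertain.

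Bcl2l11 had rank 9 of 10 on this scale, with 5.58 ± 0.784 CPM per kb with T3 and 3.53 ± 0.465 without (SD, n = 6). It lay below Bad and above Bcl2 in 12 of 12 libraries. Bcl2 was the lowest, with 3.01 ± 0.704 CPM per kb with T3 and 2.75 ± 0.380 without. Without the length scaling Bcl2l11 had rank 5. Its annotated exons, those of all isoforms, sum to 8.029 kb, against 1.576 kb for Bax. Of the summed per kb level of the 4 BH3-only genes, Bcl2l11 made up 15.4% to 18.8% in T3 cultures and 10.3% to 13.6% in cultures without T3. That sum leaves out the BH3-only genes Hrk, Pmaip1 and Bmf, of which Hrk averaged 141.2 CPM with T3 and 134.5 CPM without. Set against the summed per kb level of the 4 pro-survival genes, Bcl2l11 stood at 5.81 to 8.74 per 100 with T3 and at 3.49 to 5.19 per 100 without. These shares follow from the Bcl2l11 difference that chose it and are descriptions.

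**Figure D4:**
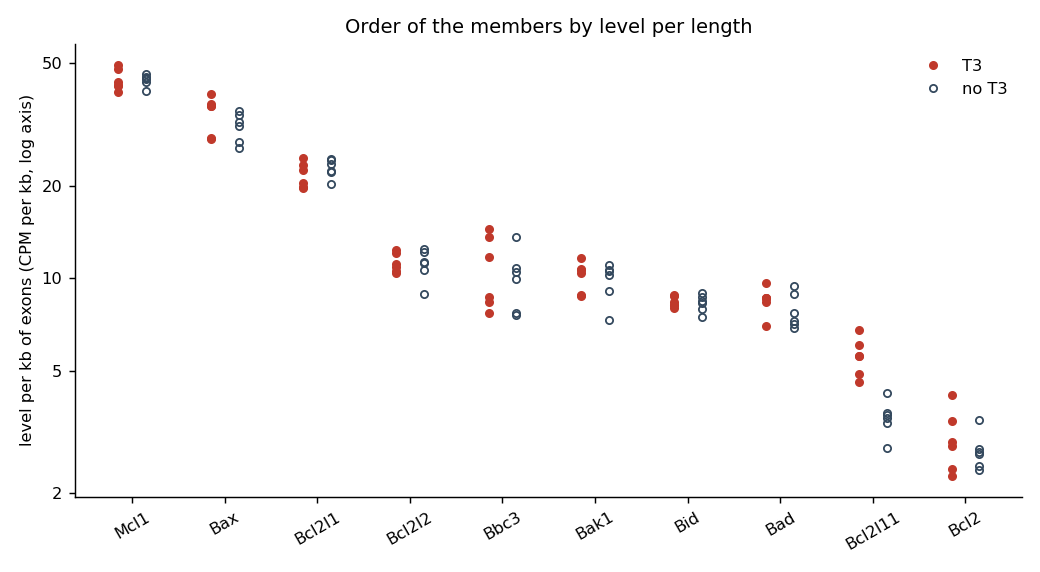
Level per kb of exons (CPM per kb, log axis) of the 10 genes, ordered by their mean, with 1 point per culture (filled, T3; open, no T3). Mcl1, Bax and Bcl2l1 lie apart from the rest, and Bcl2l11 lies between Bad and Bcl2.

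The genes whose levels were most like those of Bcl2l11 over the 12 libraries were found by Pearson correlation of log2(CPM + 0.5) among 12173 tested genes with an established symbol and a mean of at least 1 on that scale, as a description. The points share their mice and the treatment, so genes that differ with T3 lead such a list. Slc37a4, a glucose-6-phosphate transporter, had the highest r, 0.97, with 33.8 ± 1.73 CPM with T3 and 28.0 ± 2.05 CPM without (SD, n = 6). Rcan1, an inhibitor of calcineurin, followed with r = 0.93 and the early response gene Ier5 with r = 0.92. Ephb2, Kmt5c, Nt5c, Sema6c and Stac2 came next, with r from 0.90 to 0.91. All 8 were higher with T3 in 6 of 6 mice. The opposite end was led by the calcium-binding protein gene Calb1 (r = -0.96), with 19.8 ± 3.39 CPM with T3 and 42.7 ± 14.3 CPM without (SD, n = 6), followed by Grk3 and Rsbn1l (both r = -0.92) and Fank1 (r = -0.91). Among the 9 other members, Bax had the highest correlation with Bcl2l11, 0.59, and Mcl1 the lowest, -0.11.

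Outside the 10 genes, 114 genes of apoptosis and its control are reported in 8 groups, 98 were found by symbol and 95 were tested. Of these 5 rose and 2 fell, or 7.37%, near the 5.52% of all genes, with a median log2 difference of 0.0156. An unadjusted p under 0.05 (limma) was held by 19 of the 95. Among them were 5 of 22 regulators of Bcl2l11, 5 of 13 FoxO targets and 5 of 17 genes of p53 and its targets. The share of all genes under that limit is not given here, so these counts have no background. The medians of the 8 groups ran from -0.0997 for the inhibitors of apoptosis to 0.0905 for p53 and its targets, against 0.0031 over all genes tested. The other Bcl2 relatives held no call among 7 tested (limma), where 1, the pore-forming Bok, had an unadjusted p under 0.05, and none passed with edgeR or DESeq2. Bok stood at 39.7 ± 9.45 CPM with T3 and 34.2 ± 7.33 CPM without (SD, n = 6, log2 difference 0.20, adjusted p = 0.198 by limma). Without mouse 1 it passed (adjusted p = 0.00957, range over the settings 0.00957 to 0.791).

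The BH3-only gene Hrk, an activator of neuronal death known as Harakiri, stood at 141.2 ± 8.88 CPM with T3 and 134.5 ± 13.0 CPM without (log2 difference 0.074, 95% interval -0.034 to 0.18). Pmaip1, which encodes the Mcl1 antagonist Noxa, stood at 22.6 ± 4.83 CPM with T3 and 21.1 ± 4.62 CPM without, and Bmf, a BH3-only protein tied to the cytoskeleton, at 4.71 ± 1.81 and 3.74 ± 1.16 CPM. The hypoxia and mitophagy genes Bnip3 and Bnip3l had log2 differences of -0.044 and -0.10, and Bcl2l13 one of 0.0047. Bnip3 has an antisense gene over 22.3% of its exons. The 8 other relatives on that list were not found by symbol among the genes listed in the deposited data.

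Of 22 known regulators of Bcl2l11, 1 rose and 1 fell, or 9.09%, against 5.52% of all genes tested. Nr3c1, the glucocorticoid receptor gene, ran from 50.3 over 63.2 to 84.4 CPM with T3 and averaged 64.3 ± 12.6 CPM there, against 49.2 ± 8.96 CPM without T3 (SD, n = 6). Without T3 it ran from 35.8 over 49.6 to 59.2 CPM. The rise was 0.38 as a log2 difference (SE 0.059, adjusted p = 0.000287 by limma), seen in 6 of 6 mice, and it did not pass without the mouse as a block (adjusted p = 0.29). Mapk10, a JNK kinase gene of neurons, fell to 212.2 ± 12.6 CPM with T3, against 245.5 ± 18.7 CPM without T3 (SD, n = 6, log2 difference -0.21, adjusted p = 0.0117 by limma). Its groups did not overlap, which held with T3 below for 0.622% of all genes tested. Its call was lost without mouse 6 (adjusted p = 0.0525, range 0.0023 to 0.128).

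Of 13 tested targets of FoxO factors, the transcription factors best known for driving Bcl2l11, 1 rose and 1 fell. Both together made up 15.4% of the group, against 5.52% of all genes tested. Bcl6, a transcriptional repressor gene, rose to 8.63 ± 1.43 CPM with T3, against 5.55 ± 1.45 CPM without T3 (SD, n = 6, log2 difference 0.61, adjusted p = 0.00761 by limma). Ccng2, which encodes cyclin G2, fell to 73.1 ± 5.97 CPM with T3, against 87.4 ± 5.04 CPM without (SD, n = 6, log2 difference -0.26, adjusted p = 0.00736 by limma). The Ccng2 groups did not overlap, which held with T3 below for 0.622% of all genes tested. Leaving out mouse 3 ended both calls, with adjusted p of 0.0559 for Bcl6 (range 0.0029 to 0.0858) and 0.051 for Ccng2 (range 0.0014 to 0.0584). Other targets on the list passed only in other settings. Cited2 passed as lower with RLE scaling, edgeR, limma-voom, thinned reads and without mouse 2, and Irs2 as higher without mouse 1.

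Of 17 tested genes of p53 and its targets, which include neither Bax nor Bbc3 here, 2 rose and none fell. That is 11.8% of the group, against 5.52% of all genes tested. Phlda3, an inhibitor of Akt signalling, stood at 30.1 ± 3.80 CPM with T3 and 24.2 ± 4.82 CPM without (SD, n = 6, log2 difference 0.32, adjusted p = 0.035 by limma). The receptor gene Eda2r stood at 42.6 ± 9.02 CPM with T3 and 34.4 ± 3.95 CPM without (SD, n = 6, log2 difference 0.29, adjusted p = 0.0294 by limma). The Eda2r call was lost without mouse 1, 2, 3 or 4 (adjusted p 0.0823, 0.0763, 0.0881 and 0.112) and that of Phlda3 without mouse 3, 4, 5 or 6 (0.0929, 0.0661, 0.158 and 0.132). Over all settings their adjusted p ranged from 0.0062 to 0.368 and from 0.013 to 0.299.

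Downstream of the mitochondria, none of the 10 genes of the apoptosome and caspases reported here passed (limma), where 5.52% of all genes passed. At that share a list of 10 can hold no call. Of these 10, 1 had an unadjusted p under 0.05, the same 1 passed with edgeR, and none passed with DESeq2. Apaf1, the scaffold of the apoptosome, stood at 72.4 ± 3.12 CPM with T3 and 82.4 ± 2.87 CPM without (SD, n = 6), lower in 6 of 6 mice. Its groups did not overlap, which held with T3 below for 0.622% of all genes tested. Its log2 difference of -0.19 had an adjusted p of 0.0527 by limma, and it passed without mouse 1 (0.0494), with RLE scaling (0.0481), with edgeR (0.0491) and with limma-voom (0.0471), within a range of 0.0471 to 0.242. Htra2, a mitochondrial protease gene, had the next lowest p of these genes, with 18.6 ± 1.86 CPM with T3 and 16.6 ± 1.44 CPM without (SD, n = 6, adjusted p = 0.418 by limma). Aup1 and Loxl3 overlap 25.6% and 18.2% of its exons on the other strand.

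None of 5 tested inhibitors of apoptosis passed (limma), where 5.52% of all genes passed. None of the 5 had an unadjusted p under 0.05, and none passed with edgeR or DESeq2. Their lowest p belonged to Birc2, with 32.7 ± 3.17 CPM with T3 and 35.4 ± 2.54 CPM without, and to Xiap, an inhibitor of caspases, with 118.5 ± 17.4 and 126.2 ± 15.4 CPM. None of 8 tested death receptor genes passed (limma), against the same 5.52%, with 1 unadjusted p under 0.05 and no call by edgeR or DESeq2. Lists this short can hold no call at that share. The death receptor gene Fas stood at 4.61 ± 2.69 CPM with T3 and 2.95 ± 1.09 CPM without (SD, n = 6, adjusted p = 0.135 by limma), and passed without mouse 4 (adjusted p = 0.0333, range 0.0333 to 0.813). The receptor gene Tnfrsf1a stood at 25.7 ± 5.29 CPM with T3 and 23.3 ± 6.78 CPM without.

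Of 13 tested genes whose proteins modify or hold Bcl2 family proteins, 1 rose, or 7.69%, against 5.52% of all genes tested. Pak1, a kinase known to phosphorylate Bad, stood at 331.6 ± 19.8 CPM with T3 and 260.8 ± 16.2 CPM without (SD, n = 6), higher in 6 of 6 mice. Its groups did not overlap, which held with T3 on top for 1.05% of all genes tested. Its log2 difference was 0.35 (SE 0.051, adjusted p = 0.00019 by limma), and the call held in all 15 other settings. Usp9x, a deubiquitinase that stabilises Mcl1 protein, stood at 373.5 ± 31.2 CPM with T3 and 402.4 ± 40.0 CPM without (adjusted p = 0.341 by limma).

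**Figure D5:**
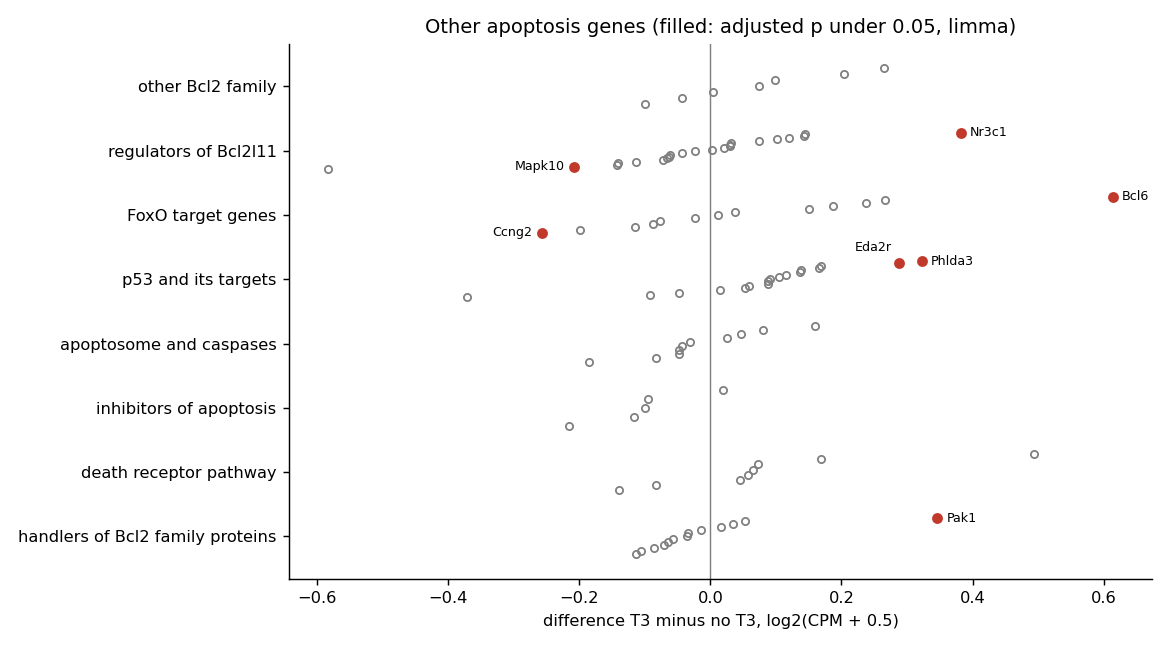
Difference between T3 and no T3 in log2(CPM + 0.5) (horizontal axis) for the 95 tested genes of 8 groups (rows), with 1 point per gene. Filled, named points passed an adjusted p of 0.05 in limma, 5 above 0 and 2 below, and open points did not.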

How the data were processed

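Per the submitters' processing notes, the reads went through CASAVA, FastQC, Bowtie, TopHat, HTSeq and edgeR with build GRCm38; tool versions are not given there. Libraries of 500 ng total RNA were read as single reads of 75 bases with a kit that does not mark strand. The deposited values are a normalized signal, reads per gene scaled by TMM, with library sums of 969044 to 1044783, read here as CPM. The deposited table and single files differed by at most 5.1e-11. Values were whole multiples of 1 read (100% within 0.01 reads), which gave back the reads, from 5272092 to 10837895 per library. A count of 0 allows 3 reads, or 0.273 to 0.557 CPM, for counting error only.

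The test was limma 3.58.1 (R 4.3.3) on log2(CPM + 0.5) with a mean-variance trend, robust variance and mouse as block, two-sided, adjusted by Benjamini-Hochberg over 13663 genes, which the filterByExpr rule of edgeR 4.0.16 kept. The threshold was an adjusted p of 0.05. Fold changes on this scale understate those of low genes. The pairing comes from the series' design text, where each fetus gave both cultures. Cultures of a mouse correlated at 0.237 to 0.638 in their deviations from group means. Cultures of different mice reached 0.348 (median -0.106), which overlaps the same-mouse values, so these correlations alone do not establish each pair. No libraries agreed within sampling noise (chi-square per degree of freedom 2.41 to 18.1). Alternatives used recovered reads (edgeR's quasi-likelihood test, which called 782 genes against 754, DESeq2 1.42.0, limma-voom, RLE, thinning), other pseudocounts, no filter, no block, and each mouse left out. The procedure was also run on simulated counts that held no mouse effect, so that run did not test the use of the mouse as a block.

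The members and lists were chosen with earlier results of these data known. All members were named. Of the lists, genes past the threshold, the 2 smallest p of each list and every tested Bcl2 relative were named, and the 8 genes most and 4 least correlated with Bcl2l11. Cited2 and Irs2 were named for calls in other settings only. One gene of the lists is not reported here and is left out of the list counts. Symbols were found for 14648 of 14801 identifiers. Overlaps with other genes come from GENCODE M21 exons.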

Additional observations from a re-analysis of the deposited data

Results flagged for a closer look

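Among 93 groups of 6 values, for the 10 members and 21 other named genes, 3 held a value far from the other 5 (Dixon's test), where chance gives about 1 in 20. None belonged to a member. Bnip3l stood at 149.9 CPM in the T3 culture of mouse 1, against 122.3 to 132.0 CPM in the other T3 cultures. Fas stood at 9.87 CPM in the same culture, against 2.63 to 4.47 CPM in the other T3 cultures. Ccng2 differed by -0.0375 on the log2 scale in mouse 1, against -0.35 to -0.25 in the other mice.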

How the results depend on the processing

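The Bcl2l11 difference stayed between 0.58 and 0.70 on the log2 scale in the 15 other settings, and none of the other 9 members passed in any of them. Of the 9, 1 had an unadjusted p under 0.05 without mouse 1 and 1 without mouse 2. The count of genes passing was 754, and 178 without the replicate block, which took the share of higher genes to 70.2% (61.1% with it, 56.1% with thinned reads). Leaving out 1 mouse gave 459 (without mouse 3) to 854 (without mouse 1). Of the other apoptosis genes 7 passed, 4 with DESeq2, 1 (Pak1) without the replicate block, and 3 (without mouse 3) to 9 (without mouse 1) with a mouse left out. RLE scaling, edgeR and limma-voom each gave 9, and thinned reads gave 8. Without the block the calls of Nr3c1, Mapk10, Ccng2, Bcl6, Eda2r and Phlda3 were lost, and no other call among the 9 other members and the named apoptosis genes changed. DESeq2 ended the calls of Bcl6, Eda2r and Phlda3, and thinning that of Eda2r. Bcl2l11 ranked 9 by level per kb and 5 by CPM.

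Differences near 0 that never passed changed sign. Thinning gave Bcl2l2 -0.044, Mcl1 -0.034, Bid -0.038 and Bcl2l13 -0.050, and RLE scaling and DESeq2 both gave Bcl2l13 -0.0004. With a mouse left out, Mcl1 lay between -0.020 and 0.0315, Bid between -0.023 and 0.040, Bcl2l2 between -0.019 and 0.075, Bnip3 between -0.065 and 0.0035, Bak1 between -0.0083 and 0.127, Bbc3 between -0.020 and 0.197, and Bcl2l13 between -0.0215 and 0.023. The cause was not tested. Depth limits Bmf and Fas, with 17 to 77 and 13 to 76 reads per library.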
